A study of Homo sapiens with 13 samples.

Results

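Integrins and laminins were followed through the NEUROG2-driven conversion of human embryonic stem cells into neurons and through FGF2 treatment of those cells. The genes were picked by a rule on names. It takes all protein-coding genes for an integrin alpha chain, integrin beta chains 1 to 8 or a laminin alpha, beta or gamma chain. They also had to be named by symbol in the deposited tables. The set was chosen with earlier results of these data known. The rule gave 33 of the 60639 gene identifiers in the count tables. They are 16 integrin alpha, 6 integrin beta, 5 laminin alpha, 3 laminin beta and 3 laminin gamma chains. The table of the doxycycline experiment names all 33, and the tables of the FGF2 experiment name 22 of them. A further 5 chain genes (ITGAD, ITGAL, ITGB3, ITGB7 and LAMB4) are named by the reference annotation alone, stayed at or below 0.337 CPM (TMM-scaled counts per 1000000 reads) in every library and are not among the 33.

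Integrins are receptors at the cell surface, each made of 1 alpha and 1 beta chain, which tie the extracellular matrix to the actin cytoskeleton. Laminins are trimers of 1 alpha, 1 beta and 1 gamma chain and form the sheet of the basement membrane. Human embryonic stem cells attach to laminin mainly through a receptor of ITGA6 and ITGB1, and growing axons use integrins to move over laminin.

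All cells derive from H9, a human embryonic stem cell line, and the labels describe them as stable cells of the hES-N1 line. The series' text names forced NEUROG2 expression in an inducible system, and doxycycline, the agent of the treatment protocol, is taken as its inducer. Every library came from total RNA of 1 well, and all cultures past day 0 grew on Matrigel, itself a laminin-rich matrix, with E8 stem cell medium for the first 2 days and 3N neural medium afterwards. In the doxycycline set, 1 library each was made on day 0, on day 5 and day 11 without doxycycline, and on day 5 and day 11 with 1 µg/ml doxycycline throughout. In the FGF2 set, every culture received 1 µg/ml doxycycline for the first 6 days. Its 4 groups of 2 libraries were a day-6 control, day 6 with 20 µg/ml FGF2 on all 6 days (early FGF2), a day-12 control kept without doxycycline for its last 6 days, and day 12 with 20 µg/ml FGF2 in those last 6 days (late FGF2). In each group, 1 title reads hES-N2G1 (replicate 1 here) and the other hES-N2G2 (replicate 2), while the source names say hES-N1. The free text of the day-12 controls states 6 days of growth, against 12 in their titles, and they were taken as day 12. Separate cultures are not named beyond the wells, so p-values measure the spread between these wells. Counts per library ran from 28443657 to 47159475 (doxycycline set) and from 22802501 to 30014661 (FGF2 set). The early FGF2 libraries differed from each other more than the other pairs did, with a chi-square per degree of freedom over genes of 19.0 against 2.87 to 3.26.

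The start regions of 5 members are shown as examples of genes with differences described below. ITGB1 and LAMB1 were higher with late FGF2, and ITGB5, LAMB2 and LAMC1 were at least 4-fold lower with doxycycline on both days. ITGA5, ITGA6 and LAMA5, also lower on both days, are not shown. The sequences are from RefSeq (GRCh38.p14), which had an entry for 24 of the 33 members, ITGA9 and LAMA1 not among them. Each is given 5′ to 3′ on the gene's strand, out of the 250 bases before the RefSeq start. It is cut before the first of those bases that GENCODE 29 places in an exon of the gene. For ITGB1 the stretch lies inside the gene's span in GENCODE 29 (32900319 to 33005792), downstream of its annotated 5′ end. ITGB1 lies at chr10:32958233-32958480 (minus strand), LAMB1 at chr7:108003256-108003411 (minus), ITGB5 at chr3:124901419-124901668 (minus), LAMB2 at chr3:49133119-49133300 (minus) and LAMC1 at chr1:183023170-183023419 (plus). Capitals mark matches on either strand to the GC box GGGCGG and the ETS motif CCGGAAGT.
ITGB1: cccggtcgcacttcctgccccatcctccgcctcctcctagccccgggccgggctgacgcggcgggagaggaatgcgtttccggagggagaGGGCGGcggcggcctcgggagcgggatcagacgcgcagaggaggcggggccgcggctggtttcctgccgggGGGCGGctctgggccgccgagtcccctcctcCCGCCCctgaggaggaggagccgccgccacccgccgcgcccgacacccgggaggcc
LAMB1: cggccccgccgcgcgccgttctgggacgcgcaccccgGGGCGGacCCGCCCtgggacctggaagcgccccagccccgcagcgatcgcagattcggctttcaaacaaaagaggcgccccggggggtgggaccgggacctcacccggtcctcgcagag
ITGB5: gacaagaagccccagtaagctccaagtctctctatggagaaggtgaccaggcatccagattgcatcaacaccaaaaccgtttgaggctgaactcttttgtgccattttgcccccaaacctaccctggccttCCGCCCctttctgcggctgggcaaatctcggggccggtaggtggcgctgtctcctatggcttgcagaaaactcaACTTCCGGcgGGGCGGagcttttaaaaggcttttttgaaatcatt
LAMB2: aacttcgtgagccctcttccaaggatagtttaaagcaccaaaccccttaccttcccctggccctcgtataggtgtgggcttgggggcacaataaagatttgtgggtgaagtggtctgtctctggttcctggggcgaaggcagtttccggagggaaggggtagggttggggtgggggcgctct
LAMC1: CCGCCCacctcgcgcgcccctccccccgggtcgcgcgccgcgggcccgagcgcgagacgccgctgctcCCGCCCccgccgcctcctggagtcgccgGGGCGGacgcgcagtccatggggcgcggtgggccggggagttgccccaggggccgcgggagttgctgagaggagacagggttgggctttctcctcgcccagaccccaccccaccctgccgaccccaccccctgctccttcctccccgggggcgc

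The 250 bases before the start were searched on both strands for 4 motifs: the GC box, the ETS motif, the AP-1 motif TGANTCA and the E-box CANATG. The GC box was found in 13 of the 24 members, including all 5 printed genes, against 42.2% of 27305 promoters of the same length. For LAMB2 its single match lies within the exon of the annotation and is not in the printed part, and for LAMB1 2 of 4 matches are printed, the other 2 of which overlap each other. The ETS motif was found in ITGB5 alone of the 24, against 3.64% of all promoters. AP-1 was found in LAMA3 alone (6.57% of all promoters) and the E-box in 5 members (30.2%), ITGA6 among them and none of them printed. ITGA6 had no GC box match, whereas ITGA5 and LAMA5, also not printed, had one or more. No match overlapped a match of another motif in the 5 genes. These are matches of letters and not measured binding sites.

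Levels are CPM after TMM scaling within each set, and the sets were sequenced in separate runs. In all, 22 of the 33 members reached 10 CPM in at least 1 library, namely 11 integrin alpha, 4 integrin beta and 7 laminin chains. All 22 did so in the doxycycline set and 14 did in the FGF2 set. The other 11 (ITGA8, ITGA10, ITGA11, ITGAM, ITGAX, ITGB2, ITGB6, LAMA2, LAMA3, LAMA4 and LAMB3) stayed at or below 8.42 CPM. That group holds chains of leukocyte integrins (ITGAM, ITGAX, ITGB2) and the epithelial laminin chains LAMA3 and LAMB3. Per kilobase of exon, ITGB1, the beta chain shared by most laminin, collagen and fibronectin receptors, was the highest member in 12 of the 13 libraries. The exception was day 5 without doxycycline, where LAMA5 was at 61.1 and ITGB1 at 51.8 CPM per kilobase.

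**Figure D1:**
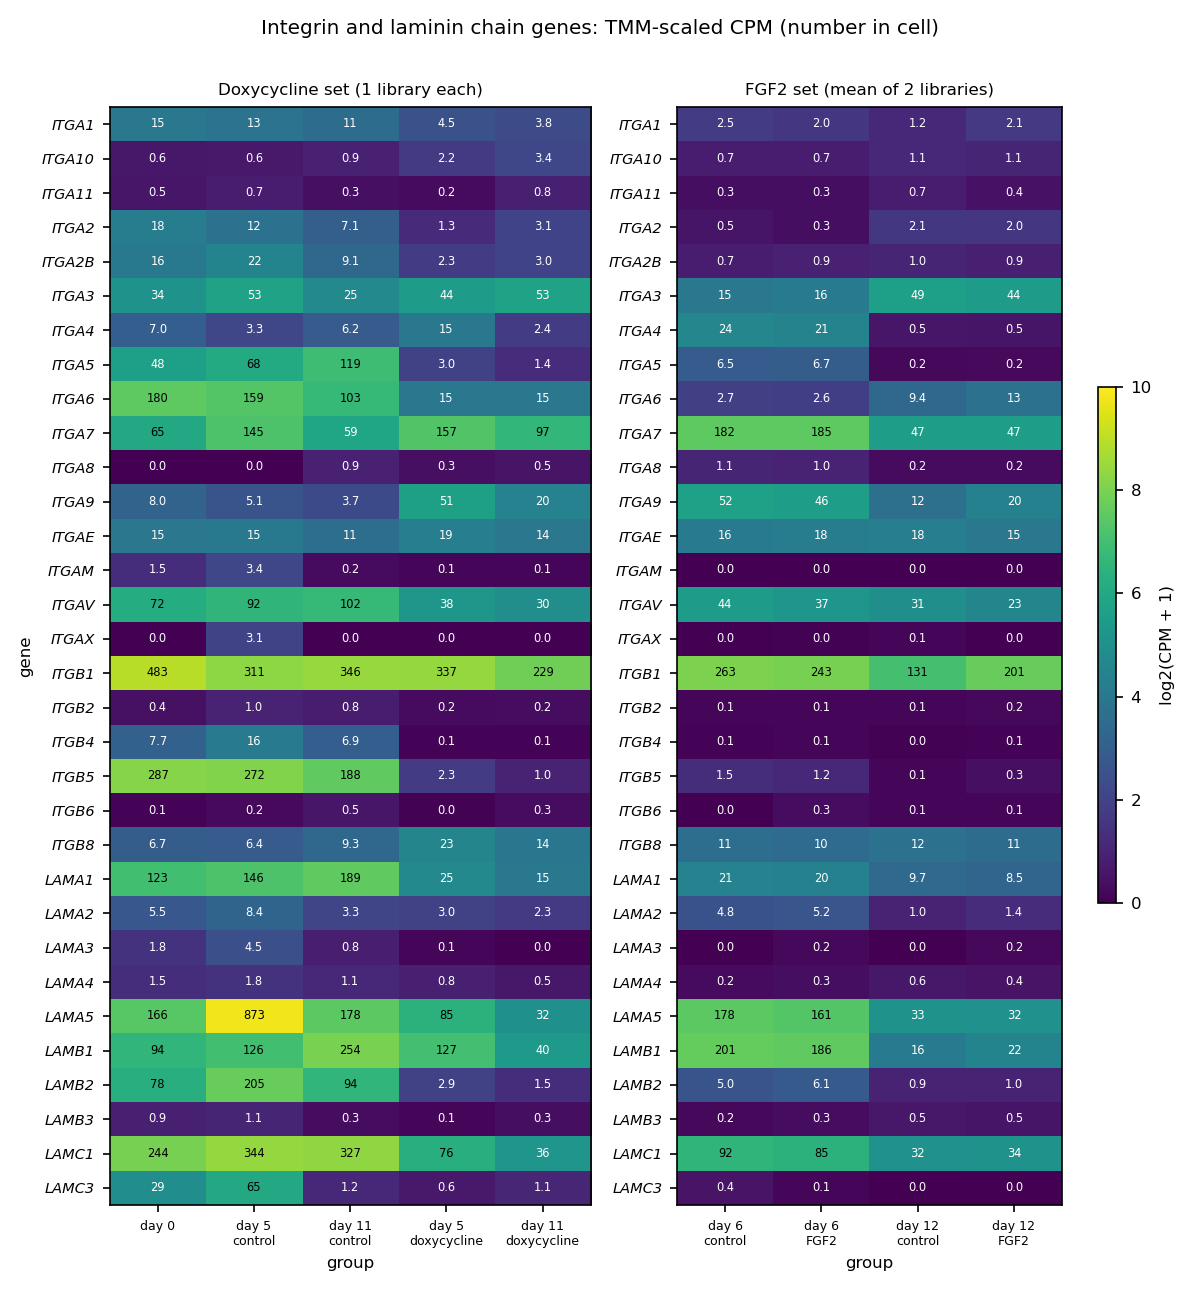
Heat map of 32 genes (rows) by group (columns), with colour for log2(CPM + 1) and the CPM printed in each cell; the doxycycline set has 1 library per group and the FGF2 set shows the mean of 2. ITGB5 and LAMB2 are bright only in the 3 columns without doxycycline of the left panel, whereas ITGB1 stays above 100 CPM in every column.

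Without doxycycline the cultures expressed ITGB1 and ITGA6, the receptor chains of stem cells on laminin, along with other integrin chains. On day 0, day 5 and day 11, ITGB1 was at 483, 311 and 346 CPM, ITGB5 at 287, 272 and 188 CPM and ITGA6 at 180, 159 and 103 CPM. ITGA5 was at 48.4, 68.5 and 119 CPM and ITGA7 at 64.9, 145 and 59.3 CPM. Per kilobase, ITGA6 and ITGA5 made up 41.4% and 9.58% of alpha chain RNA on day 0 and 25.3% and 25.2% on day 11. ITGB5 pairs with ITGAV as a vitronectin receptor, and ITGAV was at 71.8, 91.8 and 102 CPM. Among the laminin chains, LAMC1 was at 244, 344 and 327 CPM, LAMA5 at 166, 873 and 178 CPM, LAMA1, the alpha chain of early embryonic laminin, at 123, 146 and 189 CPM, and LAMB1 at 94.2, 126 and 254 CPM. LAMB2, the beta chain found at synapses and in the kidney, was at 78.3, 205 and 94.2 CPM. LAMC3, a gamma chain of restricted expression, was at 29.2, 65.3 and 1.17 CPM.

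Time in culture without doxycycline moved few of these genes by 4-fold. No group of the doxycycline set has a replicate, so no test was run, and a gene with at least 10 CPM in either library was counted as different when its ratio of (CPM + 1) was at least 4-fold. Between day 0 and day 5, 1 of 19 members was higher (LAMA5, 5.24-fold, 95% counting interval 5.11 to 5.39) and 0 were lower, against 0.839% and 0.21% of all genes. Between day 0 and day 11, 0 of 18 were higher and 1 was lower (LAMC3, 24.8-fold, interval 18.1 to 35.1), against 2.11% and 2.46%. LAMA5 was at 178 CPM on day 11, near its day-0 level. In RNA from whole cultures, fewer cells of a type and less RNA per cell cannot be told apart. The intervals, exact binomial ones on the counts, cover counting error only.

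With doxycycline many of these receptor and matrix chains were far lower, and ITGA9 was higher. Where 2 levels are set against each other below, the first is that without doxycycline. On day 5, 11 of 22 members were at least 4-fold lower and 1 was higher, against 11.5% and 12.6% of all 12895 genes counted. On day 11, 8 of 16 members were lower and 1 was higher, against 9.85% and 11.5%. The median log2 ratio was -1.76 over the members and 0.23 over all genes on day 5, and -2.10 and 0.16 on day 11. ITGA5, ITGA6, ITGB5, LAMA1, LAMA5, LAMB2 and LAMC1 were lower on both days. With scaling by library totals, the medians over all genes were 0.06 and -0.18, and on day 11 10 members were lower and 0 higher, since ITGA9 came to a log2 ratio of 1.92.

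Among the integrin beta chains, ITGB5 had the lowest log2 ratio of (CPM + 1) of all members. It was at 272 against 2.32 CPM on day 5, 117-fold lower (interval 96.0 to 145), then 188 against 1.00 CPM on day 11, 188-fold lower (134 to 273). ITGB4, which joins ITGA6 in the laminin receptor of hemidesmosomes, was at 16.0 CPM without doxycycline on day 5 and held 3 counts with it, a ratio of 221-fold with an interval of 75.0 to 1073. ITGB1 stood apart from these: 311 and 337 CPM on day 5, and 346 and 229 CPM on day 11. ITGB8, which pairs with ITGAV to activate TGF-beta, was at 6.36 against 22.6 CPM on day 5, then 9.34 against 14.1 CPM on day 11. By CPM per kilobase, ITGB1 made up 53.4% of all integrin beta chain RNA on day 5 without doxycycline and 96.7% with it, while ITGB5 went from 43.6% to 0.62%.

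Of the integrin alpha chains, ITGA5 and ITGA6 were at least 4-fold lower on both days, while ITGA3, ITGA7 and ITGAE were within 4-fold. ITGA6 was at 159 against 14.5 CPM on day 5, then 103 against 14.6 CPM on day 11. The other laminin-binding chains did not follow it: ITGA7 was at 145 against 157 CPM on day 5, then 59.3 against 96.6 CPM on day 11, and ITGA3 at 53.0 and 44.2 CPM and then at 25.1 and 53.0 CPM. The laminin-binding chains ITGA3, ITGA6 and ITGA7 together made up a share of alpha chain RNA per kilobase of 62.9% without and 64.6% with doxycycline on day 5, but the leading chain was ITGA6 (29.2%) without it and ITGA7 (50.7%) with it. On day 11 that share was 44.4% without and 68.4% with doxycycline. ITGA5, the alpha chain of the main fibronectin receptor, was at 68.5 against 2.97 CPM on day 5, then 119 against 1.39 CPM on day 11, which is 23.0-fold (19.2 to 27.8) and 85.2-fold (63.7 to 117) lower. ITGAV was at 91.8 against 38.4 CPM on day 5, then 102 against 29.6 CPM on day 11, short of the 4-fold limit on both days. The collagen receptor chain ITGA2 and the platelet chain ITGA2B were at least 4-fold lower on day 5, at 12.4 and 1.28 CPM and at 22.0 and 2.34 CPM, and were below 10 CPM in both day-11 libraries. ITGA1, another collagen receptor chain, was at 13.1 and 4.54 CPM on day 5.

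ITGA9, whose receptor with ITGB1 binds tenascin-C among other ligands, was the 1 member at least 4-fold higher by the ratio of (CPM + 1). It was at 5.08 against 50.8 CPM on day 5, 9.99-fold higher (8.51 to 11.8), then 3.73 against 20.4 CPM on day 11, 5.47-fold higher (4.51 to 6.68). Its relative ITGA4 was at 3.34 against 15.0 CPM on day 5. By CPM alone, the measure of the printed folds, that is 4.51-fold higher (3.67 to 5.59), but the ratio of (CPM + 1) is under 4-fold. With 0.1 CPM added instead, 2 members were higher on day 5, and with 5 CPM added 0 were higher on day 11. On day 11 ITGA4 was at 6.23 against 2.42 CPM, so its level with doxycycline was 6.20-fold lower on day 11 than on day 5. ITGA4 and ITGA9 together made up 1.24% of alpha chain RNA per kilobase without and 16.6% with doxycycline on day 5, and 2.00% and 8.31% on day 11. The gene ITGA9 (chromosome 3, 37452115 to 37823514, GRCh38) overlaps ITGA9-AS1 on the opposite strand over 6.46% of its exon bases. The library kit does not mark strand, so reads of the pair there cannot be told apart. Among the members at 10 CPM or more, the share of exon bases that other genes overlap reached 11.1%, in LAMA1.

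**Figure D2:**
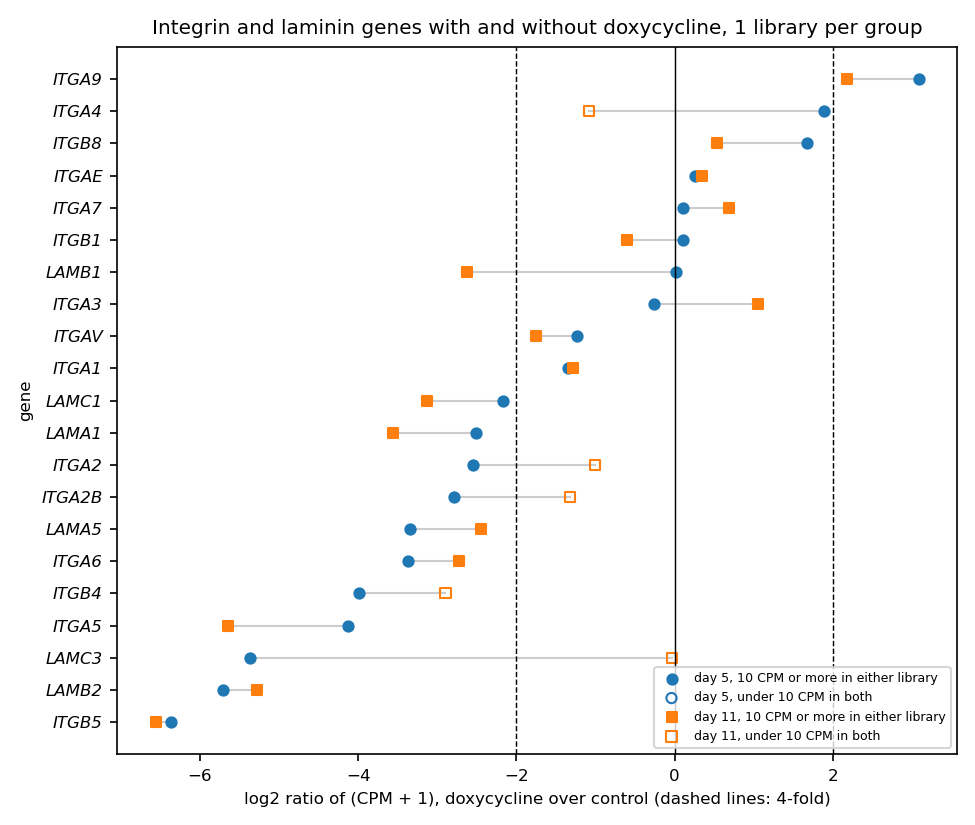
Log2 ratio of (CPM + 1), doxycycline over control, for 21 genes with at least 10 CPM, on day 5 (circles) and day 11 (squares), with open symbols where both libraries were under 10 CPM and dashed lines at 4-fold. ITGB5 lies farthest to the left and ITGA9 farthest to the right on both days; each point compares 1 library with 1 library.

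Among the laminin chains, LAMA1, LAMA5 and LAMC1 were lower with doxycycline on both days. The beta chains LAMB1 and LAMB2 split on day 5, and both were lower on day 11. LAMA5 was at 873 against 84.7 CPM on day 5, then 178 against 31.6 CPM on day 11. LAMA1 was at 146 and 24.8 CPM and then at 189 and 15.1 CPM, and LAMC1 at 344 and 75.8 CPM and then at 327 and 36.4 CPM. LAMC3 was at 65.3 and 0.604 CPM on day 5, 108-fold lower (72.9 to 167), and near 1 CPM in both day-11 libraries. LAMB2 was at 205 against 2.92 CPM on day 5, then 94.2 against 1.45 CPM on day 11, 70.1-fold (58.5 to 84.6) and 64.8-fold (48.7 to 88.0) lower. LAMB1, which can take its place in the trimer, was at 126 against 127 CPM on day 5. On day 11 LAMB1 was at 254 against 40.4 CPM, 6.30-fold lower (5.94 to 6.67). LAMB2 made up 65.5% of beta chain RNA per kilobase on day 5 without and 2.65% with doxycycline, and LAMB1 34.0% and 97.2%. On day 11 the shares were 30.5% and 4.05% for LAMB2 and 69.4% and 94.7% for LAMB1.

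Between day 5 and day 11 with doxycycline, 0 of 14 members were higher and 2, ITGA4 among them, were lower by 4-fold, against 0.741% and 1.22% of all genes.

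Marker genes of cell types moved with these comparisons. The summed level of 10 stem cell markers was 7938 against 677 CPM on day 5 and 2048 against 260 CPM on day 11. The sum of 8 epithelial markers was 1256 and 23.3 CPM, then 1051 and 21.4 CPM, and of 10 mesenchyme markers 949 and 26.2 CPM, then 255 and 30.8 CPM. The sum of 10 neuron markers was 95.9 and 17437 CPM, then 138 and 19871 CPM, with 10 of 10 detected at 1 CPM or more in each library with doxycycline. The 8 endothelial markers summed to 255 and 8.63 CPM, then 99.3 and 2.06 CPM. The 8 neural crest markers summed to 292 and 18.4 CPM, then 152 and 8.79 CPM. The 8 progenitor markers were at 797 and 1192 CPM in sum, then 889 and 736 CPM. These sums do not show the direction of most single progenitor markers counted. On day 5, 0 of the 4 counted were at least 4-fold higher and 2 were lower, with a median log2 ratio of -0.77. On day 11, 0 of 6 were higher and 4 were lower, with a median of -4.11. The shares of all genes lower were 11.5% and 9.85%. The day-11 culture without doxycycline was itself unlike day 0. There 8 of 10 stem cell markers were at least 4-fold lower, against 2.46% of all genes. The part of these marker sums in the integrin and laminin ratios was not tested.

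**Figure D3:**
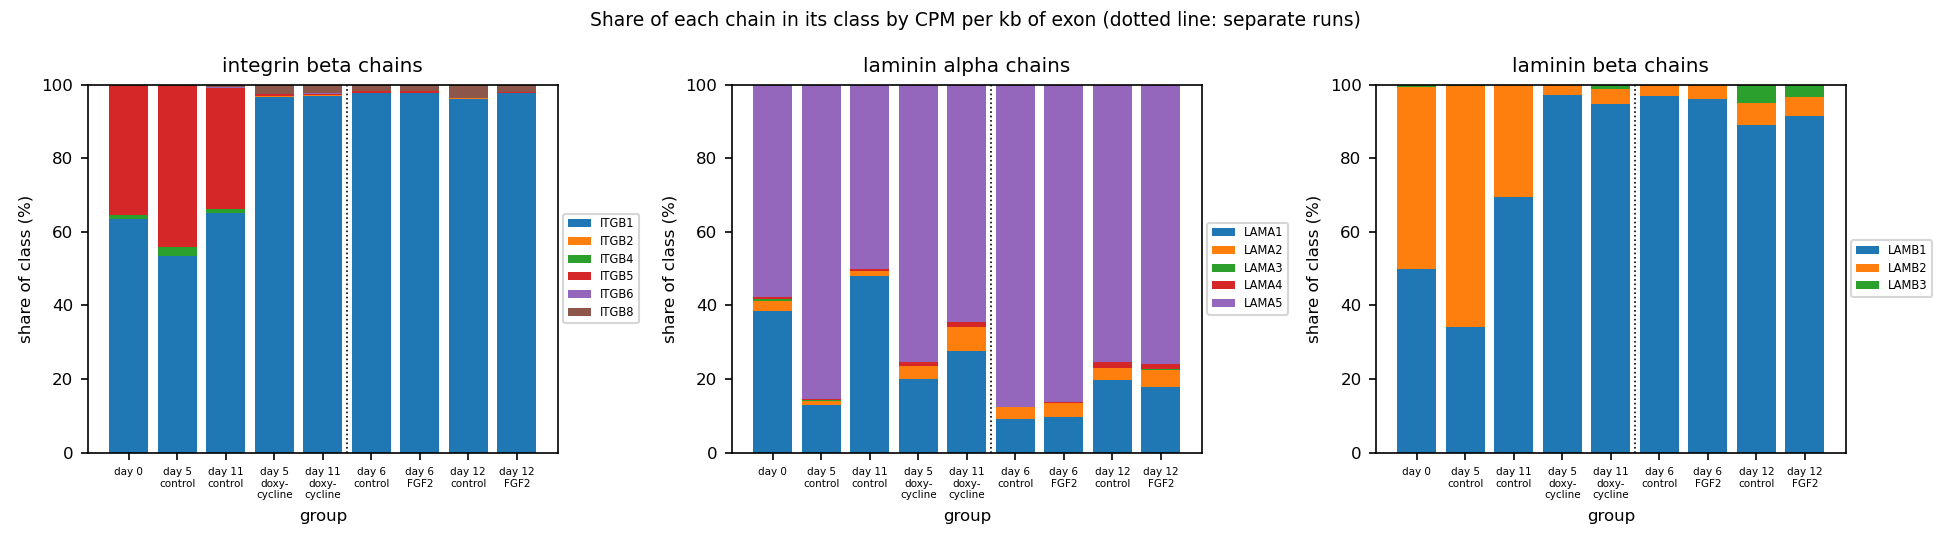
Stacked bars give each chain's share (0 to 100%) of its class by CPM per kilobase of exon in the 9 groups, for integrin beta and laminin alpha and beta chains (1 library per group left of the dotted line, mean of 2 right of it). ITGB5 and LAMB2 fill 32.9% to 43.6% and 30.5% to 65.5% of their classes without doxycycline and at most 0.62% and 5.88% in the other groups.

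In the FGF2 set, 26 of the 33 members had enough counts to be tested. The filter removed ITGAM, ITGAX, ITGB2, ITGB4, ITGB6, LAMA3 and LAMC3, which were at or below 0.645 CPM in all 8 libraries. Tests were edgeR quasi-likelihood tests, two-sided, with Benjamini-Hochberg adjustment over 20142 genes, and calls were made under an adjusted p of 0.05. Changes are log2 values with a standard error (SE).

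Between day 6 and day 12, with doxycycline withdrawn in between, most members fell. Of the 26, 16 were lower and 3 were higher in the day-12 control than in the day-6 control, against 32.3% and 31.7% of all genes tested. The median log2 change was -1.05 over the members and -0.00 over all genes. The 3 that rose, ITGA2, ITGA3 and ITGA6, encode integrin alpha chains of laminin or collagen receptors, but other chains of that kind did not rise with them. ITGA7 (log2 change -1.96) and ITGA1 (-1.01) were called lower, and the collagen receptor chains ITGA10 and ITGA11 were not called. No laminin gene was called higher.

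Large falls were seen in ITGA4, the alpha chain of a fibronectin and VCAM receptor, and in ITGA5. ITGA4 was at 23.7 CPM in both day-6 controls and at 0.568 and 0.512 CPM on day 12 (log2 change -5.44, SE 0.22, edgeR adjusted p = 6.91e-12), and ITGA5 at 7.22 and 5.79 CPM and then at 0.122 and 0.213 CPM (-5.25, SE 0.34). For both genes the 2 groups were separated by more than 10-fold, with no overlap. LAMB1 was at 207 and 195 CPM on day 6, then 15.8 and 16.8 CPM on day 12 (-3.62, SE 0.10). LAMA5 was at 178 CPM in both libraries and then at 34.3 and 32.4 CPM (-2.42, SE 0.10). LAMC1 was at 96.4 and 88.3 CPM and then at 28.9 and 35.6 CPM (-1.52, SE 0.12), and LAMA1 at 18.9 and 22.4 CPM and then at 8.92 and 10.5 CPM (-1.09, SE 0.13). LAMB1 had the largest change of the 3 chains LAMA5, LAMB1 and LAMC1, and the difference between them was not tested.

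ITGA7, the highest alpha chain on day 6 per kilobase, was at 177 and 187 CPM and fell to 44.7 and 48.5 CPM (-1.96, SE 0.08). ITGA9 was at 52.3 and 51.2 CPM and then at 10.9 and 12.8 CPM (-2.13, SE 0.12). ITGB1 was at 268 and 258 CPM and then at 134 and 127 CPM (-1.01, SE 0.08). ITGAV was at 47.3 and 40.0 CPM and then at 30.0 and 31.4 CPM (-0.51, SE 0.13). Lower counts lay behind 5 further calls: ITGB5, LAMB2, LAMA2, ITGA8 and ITGA1 were at or below 5.49 CPM in all 4 libraries. The calls of ITGAV (adjusted p = 0.0509 without the first day-6 control) and ITGA1 (0.0615 without it, and 0.0627 without the second day-12 control) were lost without 1 library.

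Against this trend, ITGA3 was at 14.4 and 15.7 CPM on day 6, then 48.8 and 48.3 CPM on day 12 (log2 change 1.69, SE 0.12, edgeR adjusted p = 6.26e-09). ITGA6 was at 2.71 and 2.79 CPM and then at 10.3 and 8.49 CPM (1.77, SE 0.18), and ITGA2 at 0.516 and 0.429 CPM and then at 1.91 and 2.26 CPM (2.13, SE 0.34). ITGB8 (11.9 and 10.8 CPM, then 12.3 and 12.0 CPM) and ITGAE (15.8 and 16.6, then 17.5 and 18.9 CPM) did not pass the test. By CPM per kilobase the laminin-binding chains made up 62.2% ± 1.8 (SD, n = 2) of alpha chain RNA on day 6 and 60.9% ± 1.0 (n = 2) on day 12. As shares of all alpha chain RNA, ITGA7 went from 58.2% ± 1.7 to 32.5% ± 0.90 and ITGA3 from 3.13% ± 0.16 to 22.0% ± 0.85.

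The doxycycline set holds a time step of the same kind, day 5 to day 11, with doxycycline present throughout and 1 library per day. The 2 steps use different libraries and differ in doxycycline, so they are set side by side without a test. Of the members called between day 6 and day 12, 12 had at least 10 CPM on day 5 or day 11 with doxycycline. All 12 had the same sign in both steps, a count not made over all genes. The printed sizes differed: ITGA6 was at 0.01 between day 5 and day 11 and at 1.77 between day 6 and day 12, ITGA3 at 0.26 and 1.69 and LAMB1 at -1.63 and -3.62. The first values are log2 ratios of (CPM + 1) and the second edgeR log2 changes, so their sizes are not on the same scale. The neuron marker sum was 11423 to 11894 CPM in the day-6 controls and 22482 to 22535 CPM in the day-12 controls, and the mesenchyme sum 44.1 to 45.4 CPM and 7.38 to 7.43 CPM. Their part in the changes was not tested.

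**Figure D4:**
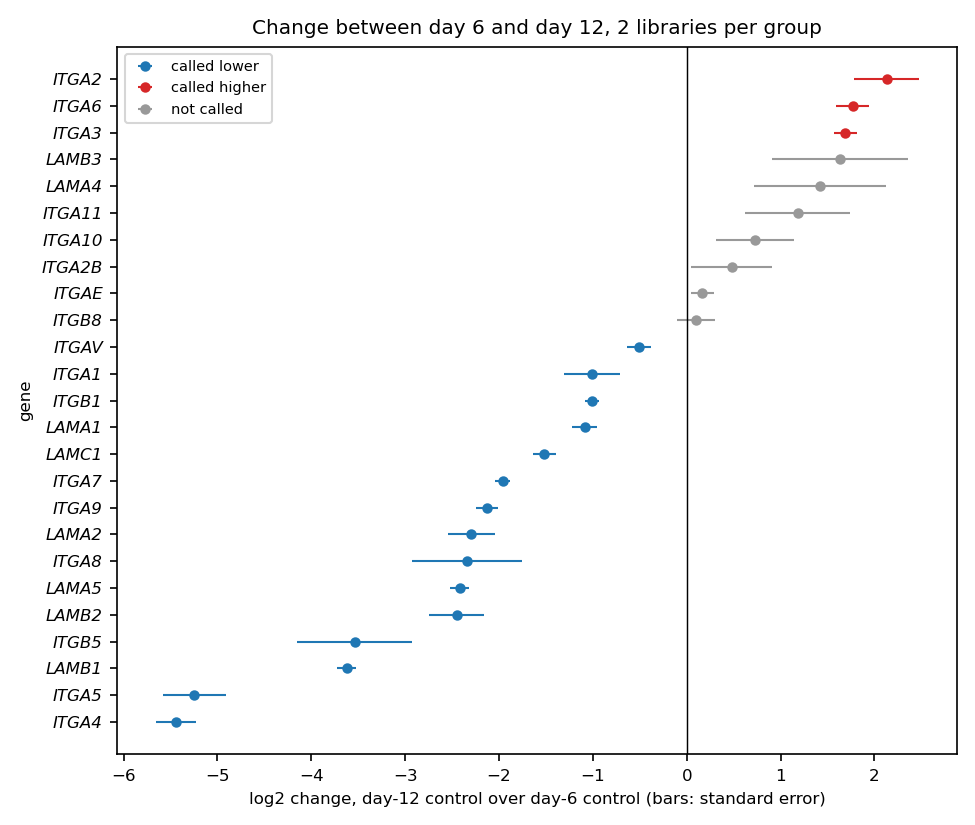
Log2 change of 25 tested genes between the day-6 and the day-12 control (2 libraries each), with the standard error as bars and colour for the call. The 15 plotted genes called lower run from -0.51 (ITGAV) to -5.44 (ITGA4), and the 3 called higher, ITGA3, ITGA6 and ITGA2, lie between 1.69 and 2.13.

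Early FGF2, given with doxycycline from the first day, called no member. In the edgeR test 0 of 26 were higher and 0 were lower, and the shares of all genes called were 0.0% and 0.0%. The smallest adjusted p among the members was 0.927, and 0 had an unadjusted p under 0.05; DESeq2 and limma voom also called 0. ITGB1 was at 268 and 258 CPM without and at 252 and 235 CPM with early FGF2, and ITGA7 at 177 and 187 CPM and at 181 and 188 CPM. The first early FGF2 library lay closer to the controls than the second for several members: ITGA9 was at 52.3 and 51.2 CPM in the controls and at 51.3 and 41.1 CPM with FGF2, and LAMA5 at 178 and 178 CPM and at 178 and 144 CPM. Without that first library, 6 of 27 members (ITGA9, ITGAV, ITGB8, LAMA5, LAMB1 and LAMC1) were called lower, against 6.41% of all genes, with log2 changes from -0.21 to -0.56. Those calls rest on 1 library, whose spread is assumed to be that of the other groups.

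Late FGF2, given to cells already 6 days into conversion, raised 3 members, and none was called lower. Of 26 members, 3 were higher (ITGB1, ITGA9 and LAMB1) and 0 were lower, against 1.63% and 0.536% of all genes. Their log2 changes were between 0.43 and 0.77, and 7 members had an unadjusted p under 0.05. The median log2 change was -0.07 over the members and 0.00 over all genes.

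ITGB1 was at 134 and 127 CPM in the day-12 controls and at 198 and 205 CPM with late FGF2. Both treated libraries lay above both controls, and both lay below the day-6 controls. The log2 change was 0.62 (SE 0.07, edgeR adjusted p = 0.000152), or 1.54-fold, and the call held in all 11 alternative analyses, with adjusted p up to 0.0143. ITGB1 lies at chromosome 10, 32900319 to 33005792 (GRCh38). ITGA9, its partner chain, was at 10.9 and 12.8 CPM in the controls and at 19.7 and 20.8 CPM with late FGF2, again without overlap. Its log2 change was 0.77 (SE 0.12, adjusted p = 0.00224), or 1.71-fold. The call was lost without the first day-12 control (adjusted p = 0.0728).

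LAMB1 (chromosome 7, 107923799 to 108003255) was at 15.8 and 16.8 CPM in the controls and at 22.9 and 21.1 CPM with late FGF2, a log2 change of 0.43 (SE 0.10, edgeR adjusted p = 0.0345). It is the least firm of the 3 calls: the adjusted p was 0.0629 with library totals, 0.0945 with limma voom and 0.139 to 0.351 without any 1 of the 4 day-12 libraries. For LAMC1 and LAMA5 the ranges of the 2 groups overlapped. LAMC1 was at 28.9 and 35.6 CPM in the controls and at 32.6 and 34.8 CPM with FGF2, and LAMA5 at 34.3 and 32.4 CPM and at 33.3 and 31.6 CPM. Whether LAMB1 differs from them in its response was not tested.

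ITGAV moved the other way, at 30.0 and 31.4 CPM in the controls and at 23.9 and 22.8 CPM with late FGF2, without overlap. The log2 change of -0.39 (SE 0.13) did not pass the test (edgeR adjusted p = 0.213, unadjusted p = 0.00943). It did pass with no filter on low counts (0.0308) and with only the 4 day-12 libraries in the fit (0.00322). In the authors' deposited table for late FGF2 from limma, ITGAV has a log2 change of -0.40 with an adjusted p of 0.00351, and in the authors' deposited table from DESeq2 -0.33 with 0.00868. The same 2 deposited tables put ITGB1, ITGA9 and LAMB1 under 0.05 as higher, 4 members in all (the DESeq2 table has no adjusted p for 10 of the 22 members it lists), and the authors' deposited tables for early FGF2 put 0 members under 0.05. ITGA6 was at 10.3 and 8.49 CPM and at 13.4 and 11.7 CPM with late FGF2 (log2 change 0.42, SE 0.15, adjusted p = 0.249), and ITGA3 at 48.8 and 48.3 CPM and at 46.6 and 40.4 CPM (adjusted p = 0.693). ITGA7 was within 44.7 to 48.5 CPM in all 4 day-12 libraries.

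**Figure D5:**
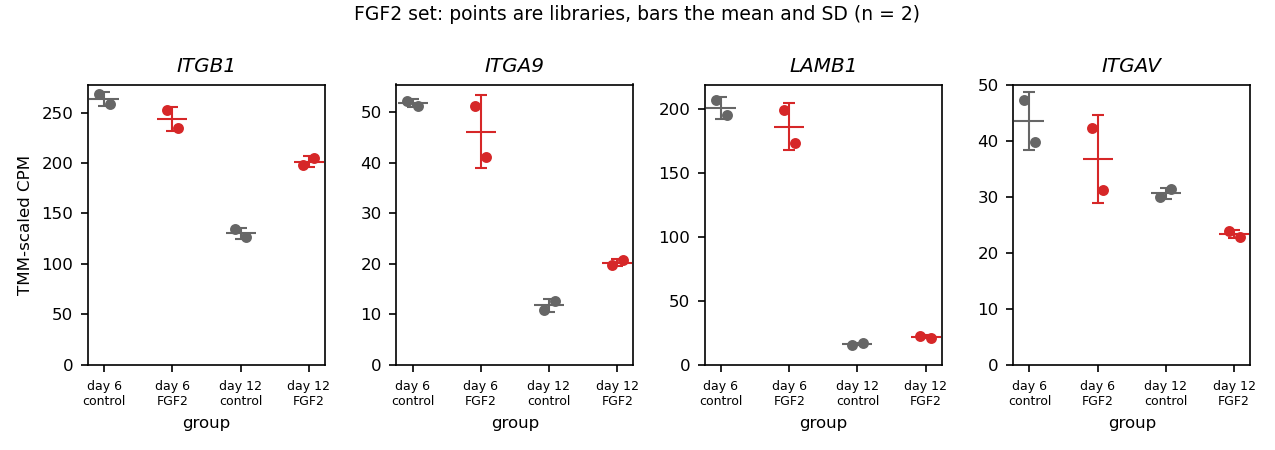
CPM of ITGB1, ITGA9, LAMB1 and ITGAV in each library (points) of the 4 groups of the FGF2 set, with the mean and SD (n = 2) as bars and FGF2 in red. On day 12 the FGF2 points of ITGB1, ITGA9 and LAMB1 lie above both controls and those of ITGAV below, while on day 6 the second FGF2 library is the lowest of the 4 day-6 points in each panel.

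The difference between the late and the early effect was itself tested, as a contrast over the 8 libraries. It was called for 2 of 26 members, both more positive with late FGF2, and for 0 in the other direction, against 0.645% and 0.0844% of all genes. For ITGB1 the difference was 0.74 (SE 0.11, edgeR adjusted p = 0.00192) and for ITGA9 0.94 (SE 0.17, adjusted p = 0.0106). The early effects in the same fit were -0.11 (SE 0.07) for ITGB1 and -0.16 (SE 0.11) for ITGA9, neither called. LAMB1 missed the threshold (0.54, SE 0.13, adjusted p = 0.0988). It passed in 5 of 14 alternatives: with the replicate block (0.0344), DESeq2 (0.0411), no filter (0.0160), and without the first (0.000256) or the second (0.0177) early FGF2 library. ITGA9 missed the threshold without either day-6 control, without the first day-12 control or without the second late FGF2 library (adjusted p 0.0577 to 0.107), and ITGB1 passed in all 14 alternatives.

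Marker sums differed between the day-12 groups. Neuron markers summed to 22482 to 22535 CPM in the controls and to 25429 to 26017 CPM with late FGF2. Their median log2 change was only 0.05, and 3 of 10 were called, all higher, against 1.63% of all genes. Among those called were the neurofilament genes NEFM (4115 ± 39.3 to 6051 ± 146 CPM, SD, n = 2, edgeR adjusted p = 9.59e-05) and NEFL (4812 ± 130 to 6175 ± 73.4 CPM, adjusted p = 0.00728). Progenitor markers summed to 874 to 935 CPM and to 1018 to 1099 CPM. The 2 of 8 that were called, the progenitor factors SOX2 and SOX1, were both lower, against 0.536% of all genes. SOX2 went from 66.5 ± 1.26 to 45.1 ± 1.62 CPM (log2 change -0.56, edgeR adjusted p = 0.000759). SOX1 had low counts, at 2.21 ± 0.49 and 0.354 ± 0.081 CPM (-2.64, adjusted p = 0.00377). Stem cell markers summed to 141 to 153 CPM and to 166 to 180 CPM, and mesenchyme markers to 7.38 to 7.43 CPM and to 7.75 to 12.8 CPM. Epithelial markers stayed at or below 2.88 CPM in sum in the 4 libraries, with KRT5 at 0 in all of them. The part of these sums in the changes of ITGB1, ITGA9 and LAMB1 was not tested.

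Genes that work with integrins and laminins were read from 4 further lists. The basement membrane list, proteins that bind laminin in the matrix sheet, was lower with doxycycline in 12 of 17 members on day 5 and 12 of 17 on day 11, with 0 higher on either day, against 11.5% lower and 12.6% higher of all genes on day 5 and 9.85% and 11.5% on day 11. Its median log2 ratio was -3.20 and -3.48, against 0.23 and 0.16 over all genes. Examples on day 5 were COL4A1, a chain of network collagen (260 and 21.4 CPM), HSPG2, the heparan sulfate proteoglycan perlecan (253 and 3.82 CPM), and COL18A1 (549 and 7.69 CPM). COL4A5 and COL4A6 were at 293 and 1.30 CPM and at 321 and 0.818 CPM on day 11. Between day 6 and day 12, 5 of 18 rose (31.7% of all genes) and 9 fell (32.3%), with a median log2 change of -1.05 against -0.00 over all genes. Those that fell included SPARC, a collagen-binding matrix protein (863 ± 14.2 to 20.0 ± 0.58 CPM, SD, n = 2), FBLN1 (204 ± 9.83 to 21.4 ± 1.36 CPM) and AGRN, agrin (606 ± 50.2 to 200.5 ± 2.19 CPM). Late FGF2 called 0 of the 18, against 1.63% higher and 0.536% lower of all genes.

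Other ligands of integrins split by gene. On day 5 with doxycycline 3 of 21 were higher and 11 were lower, and on day 11 4 of 18 were higher and 10 lower, with medians of -2.02 and -2.42. The shares lower were above those of all genes (11.5% and 9.85%), and the shares higher (12.6% and 11.5% of all genes) were near them on day 5. FN1, fibronectin, the ligand of the ITGA5 receptor, was at 340 and 35.8 CPM on day 5, and MFGE8, which binds ITGAV receptors, at 1174 and 8.80 CPM. L1CAM, an axonal adhesion molecule, was at 68.0 and 1190 CPM, and EDIL3, another ligand of ITGAV receptors, at 24.8 and 486 CPM. Between day 6 and day 12, 11 of 26 rose and 6 fell, against 31.7% and 32.3% of all genes, with a median of 0.71. Examples were TNR, tenascin-R, at 0.129 ± 0.121 and 66.3 ± 1.39 CPM (SD, n = 2) and RELN, reelin, at 2.81 ± 0.088 and 27.4 ± 3.50 CPM. Late FGF2 called 1 of the 26 higher and 1 lower, against 1.63% and 0.536% of all genes. It raised TNC, tenascin-C, a ligand of the ITGA9 receptor, from 29.9 ± 1.56 to 46.6 ± 4.85 CPM (log2 change 0.64, edgeR adjusted p = 0.00261). It lowered NTN1, the guidance protein netrin, from 24.4 ± 0.41 to 15.9 ± 0.61 CPM (-0.62, adjusted p = 0.0392).

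Laminin receptors other than integrins included the dystroglycan complex and the syndecans. With doxycycline 3 of 23 were higher and 4 lower on day 5, and 2 of 24 higher and 5 lower on day 11, with medians of -0.10 and 0.03. The shares of all genes were 12.6% and 11.5% on day 5 and 11.5% and 9.85% on day 11, so the day-5 counts were near the background. BCAM, a receptor for the laminin chain LAMA5, was at 247 and 5.95 CPM on day 5, whereas SDC3, a neuronal syndecan, was at 79.8 and 343 CPM. Between day 6 and day 12, 6 of 27 rose and 14 fell, against 31.7% and 32.3% of all genes and with a median of -0.45. Examples were DMD, dystrophin, from 2.51 ± 0.094 to 25.4 ± 0.16 CPM and SDC2 from 226 ± 14.3 to 28.1 ± 0.097 CPM (SD, n = 2). Late FGF2 called 1 of the 27 higher and 0 lower, against 1.63% and 0.536% of all genes. The 1 gene was BCAM, which rose from 1.77 ± 0.083 to 4.73 ± 0.62 CPM (log2 change 1.41, edgeR adjusted p = 0.00106). Its late effect exceeded the early one by 1.28 (adjusted p = 0.0207).

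Integrin adaptors and focal adhesion genes, which link the receptors to actin, were lower in 7 of 28 and higher in 2 on day 5 with doxycycline, and lower in 4 of 29 and higher in 0 on day 11, with medians of -0.36 and -0.54. The shares of all genes were 11.5% lower and 12.6% higher on day 5, and 9.85% and 11.5% on day 11, which the 4 of 29 lower on day 11 were near. FLNA, filamin A, was at 1509 and 331 CPM on day 5, VCL, vinculin, at 504 and 124 CPM, and the kinase gene FYN at 46.4 and 324 CPM. Between day 6 and day 12, 6 of 35 rose and 22 fell, against 31.7% and 32.3% of all genes, with a median of -0.71. FLNA fell from 370 ± 23.1 to 81.9 ± 1.71 CPM (SD, n = 2) while PXN, paxillin, rose from 10.8 ± 0.23 to 50.8 ± 1.95 CPM. Late FGF2 raised PARVA, parvin alpha, alone, from 7.17 ± 1.02 to 10.6 ± 1.68 CPM (edgeR adjusted p = 0.0480). That is 1 of 35 higher and 0 lower, against 1.63% and 0.536% of all genes. Early FGF2 called 0 genes of the 4 lists and 0.0% of all genes.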

How the data were processed

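Each set has a table of raw gene counts that the authors deposited. The submitters' processing notes name GRCh38, Subread and featureCounts 1.5.0. Aligner settings are not given in the sources used here. Normalized signal values, deposited for the doxycycline set and named limmavoom in the file name, served as an alternative. The authors' log2 changes and p-values from DESeq2 and limma are quoted only where named, and the 16 per-sample columns in those tables were not used.

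Genes were named by the tables (26349 identifiers) or else by GENCODE 29 (30921), which gave positions and exon lengths. The FGF2 set was fitted with edgeR 4.0.16 in R 4.3.3 (filterByExpr, TMM, 1 mean per group, all 8 libraries), after a check on simulated data. Its SE is the log2 change over the root of the F statistic. The doxycycline set was compared as log2 ratios after adding 1 CPM.

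The members and lists were chosen with earlier results of these data known. Members at 10 CPM or more were described singly; 1 member is in the counts and medians but is not reported here. From each list, up to 4 called genes of smallest p, or the 4 of highest CPM at 4-fold, could be named, and not all are. Alternatives included DESeq2 1.42.0 and limma 3.58.1.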

Additional observations from a re-analysis of the deposited data

Results flagged for a closer look

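In 2 members the effect of FGF2 differed between the late and the early treatment by a test of the difference itself (edgeR quasi-likelihood, adjusted over all genes). The late effect of ITGA9 exceeded the early one by 0.938 on the log2 scale (adjusted p = 0.0106), with both late FGF2 libraries above both controls and both early ones no higher than the higher control. The difference for ITGB1 was 0.738 (adjusted p = 0.00192), with both early FGF2 libraries below both of their controls and both late ones above theirs. The early group holds the 2 libraries that differ most from each other.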

How the results depend on the processing

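No called change or 4-fold ratio of a single member changed direction under any alternative run. The median over all genes did change sign with library totals: from 0.16 to -0.18 for doxycycline on day 11, from -0.07 to 0.09 for day 11 against day 0 and from -0.07 to 0.03 for day 11 against day 5 with doxycycline. In the FGF2 set, 256 of 270 checks of single called members stayed on their side of the threshold and 14 lost the call. Leaving out 1 library at a time gave 0 to 6 called members for early FGF2 (0 with all), 1 to 2 for late FGF2 (3) and 1 to 3 for the difference (2). Replicate numbers did not pair the libraries: deviations of same-numbered libraries correlated at 0.0042 to 0.098 between groups. With the replicate block, 0 members were called for early FGF2, 3 for late FGF2, 3 for the difference (LAMB1 was added) and 19 for day 12 against day 6. The fit on only the compared libraries is the same fit for the difference. In the doxycycline set, 68 of 125 ratios of single members stayed within their counting error and 57 moved beyond it. There, day 5 against day 0 gave 2 members at least 4-fold different with a limit of 1 CPM and 4 at 2-fold. Day 11 against day 0 gave 4 at 2-fold, and day 11 against day 5 with doxycycline gave 1 with the authors' normalized values, 1 with a pseudocount of 5 CPM and 6 at 2-fold. Shares moved by a few points with the longest transcript, or with no division by length: ITGB5 on day 5 without doxycycline to 42.0% and 44.9%, LAMB2 there to 62.0% and 61.7%, LAMA5 there to 83.1% and 84.5%, and LAMA5 on day 0 to 53.2% and 55.8%. A count of 0 allows up to 0.0636 to 0.132 CPM, by library, so chains below that were not detectable at this depth.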
